A study of Mus musculus with 5 samples.

Results

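The NRF2 antioxidant genes examined here were *Nfe2l2*, *Keap1*, *Nqo1*, *Gclc*, *Gclm*, *Txnrd1*, *Srxn1*, *Hmox1*, *Cat* and *Prdx6*. Members were all probe sets that the platform annotation assigns to 1 of these 10 genes alone. This gave 19 of the 45037 probe sets that are not array controls, from 9 of the 18193 genes named this way, and *Prdx6* was not analysed here. All 19 passed the filter on dim probe sets, a mean log2 intensity at or above the 40th percentile, and were tested.

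The arrays hold dorsal skin RNA of 2 *Clock* mutant mice and 3 wild-type (WT) littermates at postnatal day 23, each on 1 Affymetrix mouse genome array, with all skin staged histologically as telogen, when hair follicles rest. The *Clock* colony was on a C57BL/6J background. The mutation in *Clock* changes how its transcript is spliced, so *Clock* message on the array does not check the genotype, and the labels used here give neither the zygosity nor the hour of collection. The sexes were unbalanced, since *Clock* mutant replicate 1 was the male and 4 mice, among them every WT mouse, were female.

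NRF2, encoded by *Nfe2l2*, is a basic leucine zipper transcription factor that is held at a low level by KEAP1, an adaptor that hands it to a CUL3 ubiquitin ligase. Oxidants and electrophiles modify cysteines of KEAP1, NRF2 then accumulates, pairs with small MAF proteins and activates genes that carry antioxidant response elements. In skin this programme is known for protecting keratinocytes against reactive oxygen species and ultraviolet light. *Nfe2l2* has been described in mouse lung as an E-box target of CLOCK and BMAL1. Much of NRF2 control acts on the protein, which arrays do not measure.

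The sequences below show matches to the response element in some of the members, since it is the feature that ties the targets to NRF2. RefSeq promoter windows of GRCm38.p6, from 250 bases before to 50 bases after a transcription start, were found for 7 of the 10 genes, with 9 windows in all, 3 of them of *Txnrd1*. The core element TGACNNNGC was searched on both strands and occurred in 4 of these 9 windows, against 12.4% of all 32851 windows. These 4 windows belonged to 4 of the 7 genes. The looser form TGANNNNGC, which includes every core match, occurred in 6 of the 9 windows and in 41.3% of all windows. Capitals mark the match within 10 flanking bases on each side, written along the strand of the gene, so that GC leads where the element lies on the opposite strand. *Nfe2l2*, *Gclm* and *Txnrd1* are shown with a core match, and *Srxn1* with a looser match 45 bases before its start. The window of *Srxn1* held several looser matches.
*Nfe2l2*, chr2:75704885-75704913, minus strand: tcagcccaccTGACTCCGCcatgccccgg
*Gclm*, chr3:122245413-122245441, plus strand: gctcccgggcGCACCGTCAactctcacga
*Txnrd1*, chr10:82859104-82859132, plus strand: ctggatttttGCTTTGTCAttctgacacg
*Srxn1*, chr2:152105469-152105497, plus strand: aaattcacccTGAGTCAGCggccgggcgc
The core match of *Srxn1* lies after its start and is not printed. The E-box CACGTG occurred in 0 of the 9 windows and in 7.15% of all windows. These are matches of letters within short windows, and elements further from the start were not searched.

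Among epidermal markers, 6 of 6 genes lay above the filter on every array, as did 2 of 3 liver genes. Liver was not part of the samples, so an intensity above the filter does not by itself show that a gene is expressed in skin. Growing hair follicle markers went against the telogen label most strongly on 1 array. Their 4 genes, *Krt25*, *Krt71*, *Krt27* and *Tchh*, which encode proteins of the follicle's inner root sheath, summed to an intensity of 6371 on mutant replicate 1, against 1036 on replicate 2 and 1147, 327 and 382 in WT skin. All 4 were highest on mutant replicate 1, while the sum on replicate 2 lay inside the WT range. At *Tchh*, however, replicate 2 (315) also lay above every WT array (280, 147 and 155). Mutant replicate 2 and WT replicate 1 both had higher sums than WT replicates 2 and 3. Leaving out mutant replicate 1 thus does not make the arrays alike in these markers. The part of hair growth in the member values was not tested, and values without replicate 1 are given below. The median intensity was 105.8 on mutant replicate 1 and 114.3 to 117.9 on the other arrays. Pearson correlations of log2 intensity between arrays were 0.950 to 0.960.

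In *Clock* mutant skin, the main *Nfe2l2* probe set had a lower intensity than in WT skin, by 26.3%, while the main *Keap1* probe set was level across the 5 arrays. No NRF2 antioxidant gene passed the adjusted threshold. Of 19 member probe sets, 0 had an adjusted p under 0.05, where 0.0888% of all 27022 tested probe sets did. An unadjusted p under 0.05 was reached by 5 of 19 (26.3%), against 10.8% of all tested probe sets. Values were lower in the mutants at 4 of these (6.71% of all tested probe sets had such a p and were lower) and higher at 1 (4.09% of all). Among the 4 was the dimmest *Txnrd1* probe set, which reached the filter in WT skin alone and so entered the test through its WT values. Without mutant replicate 1, 0 of 19 had an adjusted p and 2 (10.5%) an unadjusted p under 0.05, against 6.53% of all tested probe sets, and the median over the members was -0.12. The median log2 difference over the members, *Clock* mutant minus WT, was -0.13, against -0.02 over all tested probe sets. Taking only the probe set with the highest WT mean for every gene, the median was -0.06. Of these 9 probe sets, 1 (11.1%) had an unadjusted p under 0.05 in limma, near the 10.8% of all tested probe sets. Their difference was negative at 7 of 9 (77.8%, against 53.5% of all). Both mutants lay below every WT array at 3 of 9 (33.3%, against 15.1% of all) and above every WT array at 0 (12.8% of all). The difference was negative at 14 of 19 member probe sets (73.7%), against 53.5% of all tested probe sets. Several member probe sets measure the same gene and are not independent.

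The mutant arrays did not overlap the WT arrays at 8 of 19 probe sets (42.1%), against 27.9% of all tested probe sets. At 7 of these the mutants were lower (15.1% of all tested probe sets) and at 1 they were higher (12.8% of all). The dimmest *Txnrd1* and *Srxn1* probe sets reached the filter in WT skin alone, so they entered the test through the group where they were high, and 5 of the other 17 were lower without overlap. *Clock* mutant replicate 1 was the lowest of the 5 arrays at 9 of 19 member probe sets, and at 30.2% of all tested probe sets. In whole skin, fewer cells of a type and less RNA per cell cannot be told apart.

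**Figure D1:**
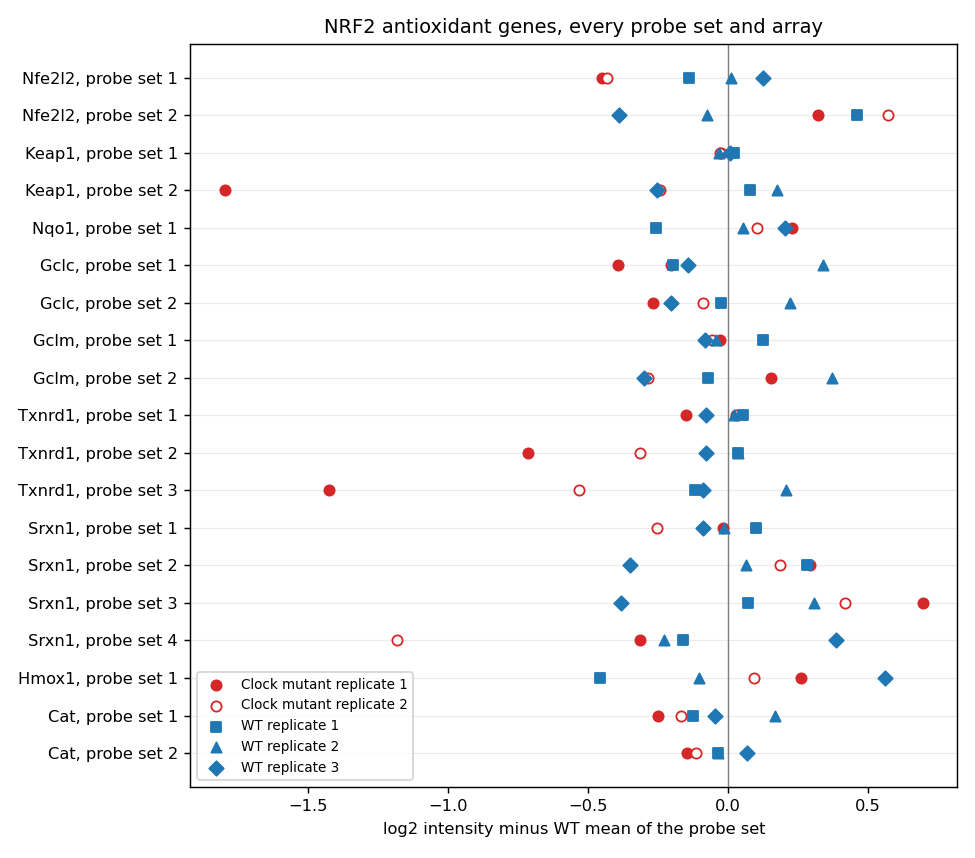
The horizontal axis is log2 intensity relative to the WT mean and the vertical axis lists the 19 probe sets of 9 NRF2 antioxidant genes, ordered within a gene from the highest WT mean to the lowest, with a point per array; red circles are *Clock* mutant arrays (filled, replicate 1) and blue symbols are WT arrays. Both mutants lie left of every WT array at the first *Nfe2l2* probe set, and mutant replicate 1 stands apart at the dim *Keap1* and *Txnrd1* probe sets.

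*Nfe2l2* (Entrez 18024) encodes the activator itself. Its brighter probe set, the main one above, read 2193 and 2219 in the mutants (replicates 1 and 2, in that order throughout) and 2720, 3019 and 3265 in WT skin (replicates 1 to 3). Both mutants lay below every WT array, and they lay closer to each other than the WT arrays did. The means were 2206 ± 18.4 (SD, n = 2) and 3001 ± 273 (SD, n = 3). On the log2 scale the mutants differed from WT by -0.44 (SE 0.0939, 95% interval -0.65 to -0.23), and limma gave an adjusted p of 0.191. The difference was -0.43 among the female mice alone, that is without *Clock* mutant replicate 1 (adjusted p = 0.534, in a fit with 1 mutant array whose spread is taken from the WT arrays), and the adjusted p ranged from 0.123 to 0.693 over the alternatives. The other probe set was dim, at 106 and 125 in the mutants and 116, 80.0 and 64.5 in WT skin. Its groups overlapped and its difference had the opposite sign, 0.45 (95% interval -0.21 to 1.10, adjusted p = 0.596). The 2 probe sets of *Nfe2l2* thus did not share a direction.

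*Keap1* (Entrez 50868) encodes the inhibitor of NRF2. At its brighter probe set the intensity was 974 and 973 in the mutants and 1006, 971 and 996 in WT skin. All 5 arrays lay within a narrow range, with a log2 difference of -0.02 (95% interval -0.24 to 0.19, adjusted p = 0.941). The dim probe set read 38.7 and 114 in the mutants and 142, 152 and 113 in WT skin. Here mutant replicate 1 stood alone and replicate 2 lay among the WT arrays, so the difference of -1.02 (SE 0.405, adjusted p = 0.429) rests on that array. Without it the difference was -0.24, and without mutant replicate 2 it was -1.80 (adjusted p = 0.0448), again with the spread of the WT arrays standing in for that of a single mutant.

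*Txnrd1* (Entrez 50493) encodes cytosolic thioredoxin reductase, a selenoprotein that keeps thioredoxin reduced with electrons from NADPH. At its brightest probe set the intensity was 2371 and 2682 in the mutants and 2731, 2675 and 2491 in WT skin, and the groups overlapped. The log2 difference there was -0.06 (95% interval -0.26 to 0.14, adjusted p = 0.837). The other probe sets of the gene read differently. The second in brightness had 210 and 276 in the mutants and 353, 353 and 326 in WT skin, with a difference of -0.51 (SE 0.161, adjusted p = 0.350). The dimmest had 34.6 and 64.4 in the mutants and 85.8, 107 and 87.5 in WT skin, with a difference of -0.98 (SE 0.322, adjusted p = 0.368). At both, the mutants lay below every WT array and replicate 1 was the lower mutant. Without mutant replicate 1 these differences were -0.32 and -0.53. An intensity of 34.6 is below the filter of 56.7, so its size is imprecise and it was tested through its WT values, and the name of this probe set carries the suffix x, which marks probes that may also bind other transcripts. Where these probe sets lie along the transcript was not tested.

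Mutant replicate 1, the lowest array at the dim *Keap1* and *Txnrd1* probe sets, had the highest ratios of the 5 arrays in the *Gapdh* and pyruvate carboxylase controls of RNA length, but not in that of *Actb*. The array control for pyruvate carboxylase had a 3' to 5' signal ratio, which rises as messages are shortened, of 54.1 on mutant replicate 1 and 27.8 on replicate 2, against 21.0, 19.1 and 28.1 in WT skin. Its brighter middle probe set had an intensity of 333 and 355 in the mutants and 556, 613 and 486 in WT skin. At the 5' end this control read 40.4 and 57.5 in the mutants, against 88.9, 97.3 and 77.9 in WT skin. At the 3' end it read 2185 and 1599 in the mutants, against 1871, 1857 and 2189 in WT skin. The 40.4 is below the filter of 56.7, so the ratio of 54.1 divides by a dim value and its size is uncertain. The *Gapdh* control ratio was 1.05 and 0.988 in the mutants and 0.902, 0.86 and 0.955 in WT skin, and that of *Actb* lay between 1.14 and 1.23 on all 5 arrays. The part of RNA length in the *Keap1* and *Txnrd1* differences was not tested.

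**Figure D2:**
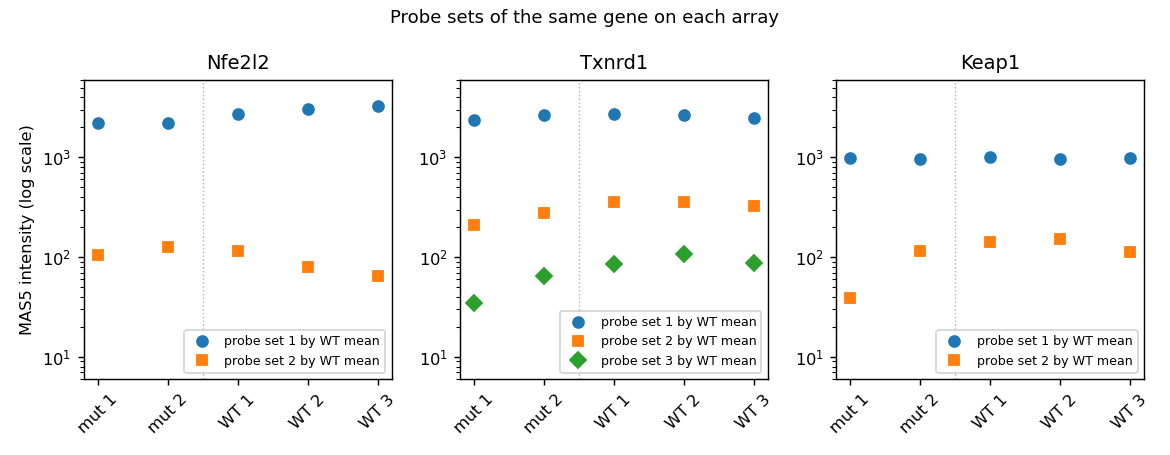
MAS5 intensity on a log scale (vertical axis) on each of the 5 arrays (horizontal axis; mut, *Clock* mutant) for the probe sets of *Nfe2l2*, *Txnrd1* and *Keap1*, with 1 symbol per probe set. The brightest *Keap1* probe set is level, at 971 to 1006, and that of *Txnrd1* lies at 2371 to 2731, lowest on mutant replicate 1. The dimmer probe sets of both genes are also lowest on that array, by a wider margin.

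*Gclc* (Entrez 14629) and *Gclm* (Entrez 14630) encode the catalytic and modifier subunits of glutamate-cysteine ligase, the first step of glutathione synthesis. *Gclc* had an intensity of 763 and 870 in the mutants and 873, 1266 and 907 in WT skin at its brighter probe set. The groups did not overlap, but the nearest mutant and WT arrays were almost equal, and the log2 difference was -0.30 (SE 0.163, 95% interval -0.67 to 0.07, adjusted p = 0.542). At the other, *Gclc* read 765 and 865 in the mutants and 905, 1075 and 801 in WT skin, with overlapping groups and a difference of -0.18 (adjusted p = 0.661). WT replicate 2 was the highest array at both, and without it the differences were -0.13 and -0.07. At the second probe set the difference was -0.09 without mutant replicate 1 and -0.28 without WT replicate 3. *Gclm* had 631 and 619 in the mutants and 701, 624 and 608 in WT skin at its brighter probe set. The mutants lay inside the WT range, and the difference was -0.04 (95% interval -0.30 to 0.22, adjusted p = 0.921). At its dimmer probe set *Gclm* was at 310 and 229 in the mutants and 266, 361 and 227 in WT skin (difference -0.07, adjusted p = 0.934).

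*Srxn1* (Entrez 76650) encodes sulfiredoxin, which repairs overoxidised peroxiredoxins, and its 4 probe sets did not share a direction. At the brightest by WT mean the intensity was 385 and 327 in the mutants and 418, 386 and 366 in WT skin, and these overlapping groups differed by -0.13 on the log2 scale (adjusted p = 0.754; -0.25 without mutant replicate 1 and -0.02 without replicate 2). The second in brightness had 362 and 335 in the mutants and 359, 309 and 232 in WT skin, with overlapping groups and a difference of 0.24 (adjusted p = 0.673; 0.07 without WT replicate 3 and 0.38 without WT replicate 1). The third had 230 and 190 in the mutants and 149, 175 and 109 in WT skin. Of the 19 member probe sets it was the one at which both mutants lay above every WT array, with a difference of 0.56 (SE 0.234, adjusted p = 0.447). The dimmest had 69.0 and 37.8 in the mutants and 76.9, 73.3 and 112 in WT skin, so both mutants lay below every WT array, with a difference of -0.75 (SE 0.343, adjusted p = 0.473). This probe set reached the filter of 56.7 in WT skin alone, and the difference was -1.18 without mutant replicate 1 and -0.32 without replicate 2.

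*Nqo1* (Entrez 18104), a quinone reductase widely used as a readout of NRF2 activity, had an intensity of 192 and 176 in the mutants and 138, 170 and 189 in WT skin. The groups overlapped, with a log2 difference of 0.17 (95% interval -0.28 to 0.61, adjusted p = 0.786), and it was 0.04 without WT replicate 1, 0.10 without mutant replicate 1 and 0.27 without WT replicate 3. *Hmox1* (Entrez 15368), the inducible haem oxygenase, had 848 and 754 in the mutants and 515, 658 and 1042 in WT skin. Both mutants lay inside the spread of the WT mice, which was the wider one, and the difference was 0.18 (95% interval -0.38 to 0.73, adjusted p = 0.823), from -0.05 without WT replicate 1 to 0.46 without WT replicate 3. Each of these genes was measured by 1 probe set, and these intervals leave room for a change in either direction.

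*Cat* (Entrez 12359) encodes catalase, the peroxisomal enzyme that breaks down hydrogen peroxide. Its 2 probe sets had nearly equal WT means. At the brighter, the intensity was 5215 and 5528 in the mutants and 5695, 6972 and 6005 in WT skin, and the difference was -0.21 on the log2 scale (SE 0.0943, adjusted p = 0.471). At the other it was 5597 and 5720 in the mutants and 6046, 6050 and 6507 in WT skin, and the difference was -0.13 (SE 0.0711, adjusted p = 0.537). The mutants were below every WT array at both, by a gap smaller than the range of the WT arrays, and both 95% intervals (-0.42 to 0.01 and -0.29 to 0.03) include 0. At the brighter the difference was -0.12 without WT replicate 2. Catalase is abundant in fat and sebaceous glands. Of the fat cell markers, 4 of 5 genes were measured, and the mutants lay below every WT array at 4 of their 7 probe sets, against 15.1% of all tested probe sets. All of these were probe sets of *Fabp4* or *Cidec*, and probe sets of the same gene are not independent. The summed intensity of the measured fat cell markers was 35239 and 31226 in the mutants and 34904 to 39469 in WT skin. *Adipoq* and *Lep* overlapped between groups (differences -0.04 and 0.12). For 3 of 4 sebaceous gland markers the sum was 4999 and 6768 in the mutants and 6150 to 6819 in WT skin. The part of fat or gland content in the *Cat* values was not tested.

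**Figure D3:**
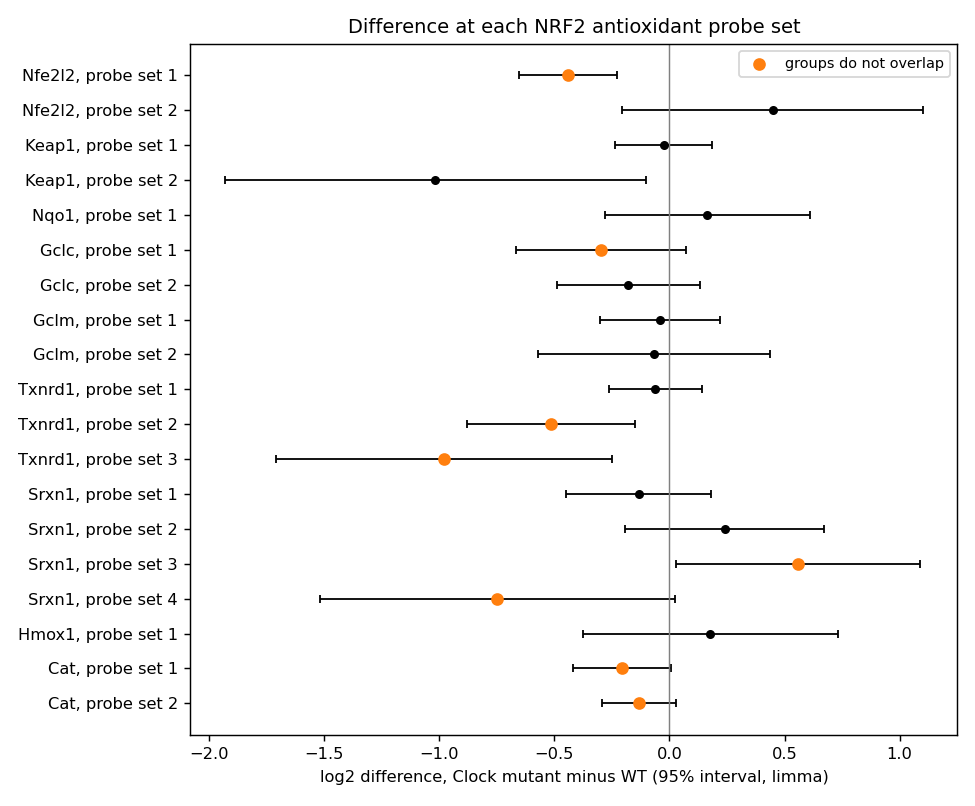
Points are the log2 difference between *Clock* mutant and WT skin (horizontal axis) at each of 19 probe sets (vertical axis), bars are 95% intervals from limma, and orange points mark probe sets whose groups do not overlap. The interval of the brighter *Nfe2l2* probe set runs from -0.65 to -0.23 before adjustment for 27022 tests, while the brightest probe sets of *Keap1* and *Txnrd1* lie at -0.02 and -0.06.

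The wider pathway was described with 8 lists of 74 genes that act with or downstream of NRF2 or serve the same chemistry, of which 67 genes had a probe set of their own and 120 of 135 probe sets were tested. Of these 120, 0 rose (0.0148% of all tested probe sets did) and 2 fell at the adjusted threshold (0.074% of all), both of *Gsta3*, a glutathione S-transferase that NRF2 can activate. *Gsta3* had an intensity of 43.1 and 37.9 in the mutants and 260, 368 and 335 in WT skin at its brighter probe set, where the log2 difference was -2.97 (SE 0.217, adjusted p = 0.00585). At the other it had 30.1 and 25.8 against 114, 124 and 170, with -2.27 (SE 0.283, adjusted p = 0.0321). The mutant intensities lay below the filter of 56.7, so both probe sets entered the test through WT skin, where they were high, and these sizes are imprecise. With no filter the adjusted p was 0.0154 and 0.110. Neither passed without a trend (0.107 and 0.245), without WT replicate 2 (0.0969 and 0.234) or without WT replicate 3 (0.054 and 0.151), the 60th percentile filter left both out, and the sign was negative in every alternative that tested them. Close relatives of this family can share probes. An unadjusted p under 0.05 was reached by 17 of 120 (14.2%), against 10.8% of all tested probe sets.

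Among partners and regulators of NRF2, such as the CUL3 ligase and the small MAF proteins, none of 27 probe sets passed, with a median of -0.06 and values from -0.35 to 0.23. The smallest p belonged to *Nfe2l1* (-0.20, adjusted p = 0.475), a relative of *Nfe2l2*, and *Sqstm1* (-0.14), which encodes p62, a protein that binds KEAP1. Glutathione supply genes had a median of 0.08 over 8 probe sets, with *Chac1* (-0.31), which degrades glutathione, and *Gsr* (0.19), glutathione reductase, at the smallest p. Genes of NADPH supply had positive differences at 11 of 12 probe sets, with a median of 0.16, and none passed. The difference was negative at 1 of the 12, against 53.5% of all tested probe sets. Several of the 12 measure the same gene and are not independent. Among these genes, *Pgd* encodes an enzyme of the pentose phosphate pathway. At 1 probe set it had 3081 and 2633 in the mutants and 2218, 1892 and 2062 in WT skin (0.47, adjusted p = 0.200). The name of that probe set carries the suffix x, described above for *Txnrd1*. Another, also with the suffix x, was at 0.40 with overlapping groups. It had 3682 and 2324 in the mutants and 2045, 2396 and 2209 in WT skin. The remaining *Pgd* probe sets were both at 0.17, with overlapping groups. Mutant replicate 1 was the higher mutant at every *Pgd* probe set.

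In the thioredoxin system, *Txnrd3*, a relative of *Txnrd1*, had higher mutant values at all 3 of its probe sets without overlap of the groups. Higher mutant values without overlap occurred at 12.8% of all tested probe sets, and probe sets of the same gene are not independent. At the one with the smallest p it had 490 and 480 in the mutants and 363, 359 and 329 in WT skin, with a difference of 0.47 (SE 0.126, adjusted p = 0.284), and the others were at 0.40 and 0.44. The other members of that list were spread on both sides of 0, and the median over 21 probe sets was 0.09. *Hmox2*, the constitutive haem oxygenase, was at 0.35 (adjusted p = 0.358) and *Blvra*, biliverdin reductase, at 0.15, and the median over 5 haem and iron probe sets was 0.03. Detoxification genes had a median of -0.02 over 12 probe sets, with the exporters *Abcc1* (-0.34) and *Abcc4* (0.27) at the smallest p, although a brighter probe set of *Abcc1* was at 0.01. The glutathione transferases had a median of -0.04 over 13 probe sets. Other antioxidant enzymes had a median of 0.06 over 22, with the plasma glutathione peroxidase *Gpx3* at -0.25 (adjusted p = 0.335) and the peroxiredoxin *Prdx2* at 0.26 (adjusted p = 0.355), with a brighter *Prdx2* probe set at 0.14.

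**Figure D4:**
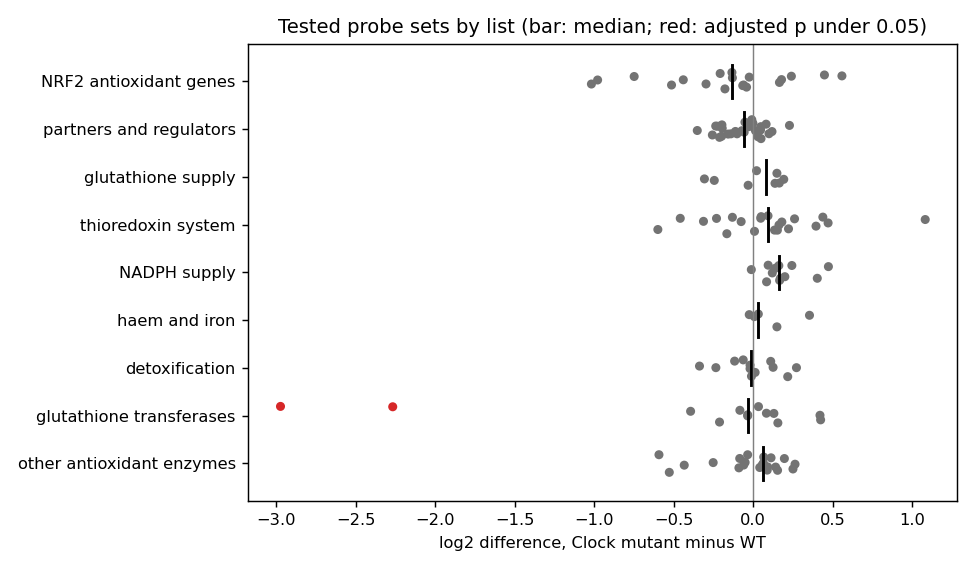
The horizontal axis is the log2 difference, mutant minus WT, and the vertical axis the list, with a point per tested probe set; bars are list medians and red points have an adjusted p under 0.05. The red points are both probe sets of *Gsta3*, at -2.97 and -2.27, and the medians lie between -0.13 for the NRF2 antioxidant genes and 0.16 for NADPH supply.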

How the data were processed

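The deposited values were signal intensities on a linear scale that the authors made with MAS5 per the labels, 1 for every array and probe set. Total RNA was extracted with Trizol, and the labels give 11 µg for each sample. The version of MAS5 is not given in the sources used here. MAS5 applies a single scaling factor per array, and its low values are noisy. Of 45101 probe sets, 64 were controls and were set aside, and of the others the platform annotation gave 34945 a single symbol and 932 several, leaving 9160 unnamed here. The 2441 values below 1 were raised to 1 before the log2 transform. A probe set entered the test if its mean log2 intensity reached the 40th percentile, which corresponds to an intensity of 56.7. The test was limma 3.58.1 (R 4.3.3; two-sided, eBayes with an intensity trend), and p-values of the 27022 tested probe sets were adjusted together by the Benjamini-Hochberg method, with calls at 0.05. It was tested on simulated data, in 5 runs on 27022 probe sets of which 200 were changed. It recovered 94% of log2 changes of 2 and 63.2% of those of 1. The simulated noise was normal, independent between probe sets and drawn from the variance model that limma had fitted. These shares thus check the method under its own model and do not give the share it would recover on these arrays. The methods state no test for these arrays. The members and lists were chosen with earlier results of these data known, so counts and medians are descriptions. The text names every member probe set, list genes past the adjusted threshold and the 2 probe sets of each list with the smallest p. Alternatives changed the scaling (quantile, median), the filter (none, 60th percentile), the transform (adding 32 before log2), the variance model (no trend, robust, or a Cyber-T style window of 101 probe sets with prior weight 10), the design (replicate block) and the arrays (each left out once). The labels call the arrays biological replicates, and their number limits the precision.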

Additional observations from a re-analysis of the deposited data

How the results depend on the processing

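With all 5 arrays, 0 member probe sets passed the adjusted threshold of limma or of the Cyber-T style test under any alternative. Those at an unadjusted p under 0.05 numbered 5 in the fit reported and 7 with quantile normalization, 4 without a trend, 4 with the Cyber-T style test and 2 of the 13 left by the 60th percentile filter. Leaving out an array gave 0 to 1, the 1 being the dim *Keap1* probe set (-1.80) without *Clock* mutant replicate 2. Over all probe sets 24 passed, against 10 with no filter, 0 without a trend (2631 at an unadjusted p under 0.05), 47 with the Cyber-T style test and 0 to 239 when an array was left out. The counts of 0 came without WT replicate 2 (1570 at an unadjusted p under 0.05) and without WT replicate 3 (2193), and that of 239 without *Clock* mutant replicate 2. In the wider lists 2 passed, against 1 with no filter, 0 with the 60th percentile filter (14 at an unadjusted p under 0.05), which leaves out both *Gsta3* probe sets, 0 without a trend (14) and 0 to 4 when an array was left out. Those counts were 0 without WT replicate 2 (14 unadjusted) and WT replicate 3 (15), 1 without *Clock* mutant replicate 1 or WT replicate 1, and 4 without *Clock* mutant replicate 2. The cause was not tested.

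Of 19 member probe sets, 14 kept their sign in every alternative that tested them. Median centring turned the sign of the brighter *Keap1* probe set (0.063), both of *Gclm* (0.047 and 0.022 for the brighter and the dimmer) and the brightest of *Txnrd1* (0.027). When an array was left out, these *Gclm* probe sets ranged from -0.083 to 0.021 and from -0.286 to 0.154, that of *Txnrd1* from -0.15 to 0.028 and *Hmox1* from -0.05 to 0.458.

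The replicate numbers 1 and 2 occur in both groups, and the deviations of same-numbered arrays from their group means correlated at 0.0078 and 0.0986. *Clock* mutant replicate 1 correlated at 0.0796 with WT replicate 3. With 2 mutant arrays, their deviations mirror each other, so these correlations cannot decide whether the numbers mark pairs. The numbers were not taken as pairs in the fit reported. With the replicate number as a block, in which WT replicate 3 adds nothing, 106 probe sets passed, among them 0 members (7 at an unadjusted p under 0.05).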
